A study of Mus musculus with 6 samples.

Results

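Aminoacyl-tRNA synthetases join each amino acid to its transfer RNA (tRNA), the step that sets the reading of the genetic code before the ribosome acts. One set of enzymes works in the cytosol and a second set, whose gene names mostly end in 2, works inside mitochondria. Liver needs both, since it makes most plasma proteins and is rich in mitochondria. Several cytosolic enzymes sit in one large multisynthetase complex held together by scaffold proteins, and transcription of many cytosolic synthetase genes is known to be raised by the transcription factor ATF4 when amino acids run short. The genes were chosen by name: 39 were listed, 20 cytosolic synthetase subunits or enzymes, 3 scaffold proteins of the complex and 16 mitochondrial enzymes, and every probe set annotated to exactly 1 of these symbols was taken. A probe set is the group of probes on the array that reads 1 transcript target. This gave 76 of the 45037 probe sets tested and 38 of the 39 genes, with 40 cytosolic, 4 scaffold and 32 mitochondrial probe sets. Dars, the cytosolic aspartate enzyme, had none. One more probe set is annotated to Aars together with Exosc6 and was left out.

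The values come from livers of 6 male BALB/cCrSlc mice, an inbred albino strain, aged 17 weeks, each measured on 1 Affymetrix 3' expression array. All ate low-protein diets of the AIN-93M type, a purified maintenance formula, for 10 weeks and were sampled after 3 h without food. Mice on diet 10C (n = 3) received 10% casein, and mice on diet 6C+4CP (n = 3) received 6% casein with 4% fish collagen peptide, so less casein and added collagen peptide cannot be told apart. Collagen peptide is rich in glycine and proline and holds no tryptophan. From 12 mice per diet, 3 of medium food efficiency were taken, and the arrays are therefore separate but selected animals. In whole liver, less RNA per cell and fewer cells of a type cannot be told apart.

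The deposited values are read as log2, although their base is not given, and differences below are 6C+4CP minus 10C on that scale. Array medians lay between 6.306 and 6.308. Of all probe sets 17.3% ranged over more than 0.01 across the mice; the others hold practically 1 value on every array and are called flat here, since a flat value does not show whether the gene's level differed. All 8 hepatocyte markers were measured, with mean values from 11.25 to 14.23 on the brightest probe set of each. Limma called 0 marker probe sets between the diets, but some moved with the diet. Of 16 varying hepatocyte probe sets 7 had an unadjusted p under 0.05 (13.1% of all varying ones), and on 8 the diets did not overlap, 5 lower (9.11% of all) and 3 higher (10.8%). Among them were Hnf4a, a transcription factor (0.93 and 0.40 on a pair of probe sets), and Cps1, of the urea cycle (-0.27). Another varying probe set of Hnf4a differed by -0.019 with overlapping diets, and its remaining probe set was flat. Several of the lower ones belonged to Apoa1. Probe sets of 1 gene share its transcripts, so these counts are not of separate genes. Of 6 varying probe sets of Kupffer cell and macrophage markers 5 were lower, with a median of -0.17. Their median deviations from the mean of the 6 mice overlapped between the diets, at 0.040, -0.18 and 0.38 for 10C and -0.056, -0.31 and 0.24 for 6C+4CP. Ighm, an immunoglobulin chain of B cells, was lower by 0.66 without overlap on its 1 varying probe set. The part of these markers in the synthetase values was not tested. The 3 arrays of a diet limit the precision, and no detection call accompanies the values.

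Cytosolic synthetase genes that varied tended to read lower in livers of mice fed 6C+4CP, by small amounts and with 0 genes past the test. The median difference of their varying probe sets was -0.15, and only -0.054 without 10C replicate 2. Of the 19 cytosolic genes measured 6 were flat on every probe set. Tars and Aars, the threonine and alanine enzymes, had the widest differences, each about 1.43 times lower on 1 probe set; the second probe set of Aars was 1.23 times lower with overlapping diets. Mitochondrial synthetase genes went both ways. Over varying probe sets the median size of their differences, sign aside, was 0.081, against 0.15 for the cytosolic ones. By gene, on the brightest varying probe set, the mitochondrial median size was not the smaller. The scaffold genes varied more within the 10C diet than between the diets.

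The promoters of the cytosolic genes are shown first because some of them hold a sequence that is uncommon over all promoters. Promoter windows of 300 bases (250 before to 50 after a transcript's start, RefSeq, GRCm38.p6) were found for 30 of the 39 genes, in 32 windows. Most of the 9 genes without a window were cytosolic. The letters TGATGNAA, the core of the amino acid response element that ATF4 binds together with C/EBP proteins, were searched on both strands (TTNCATCA on the other). They stood in 5 of 13 cytosolic windows, in 0 of 15 mitochondrial and in 0 of 4 scaffold windows, against 3.97% of all 32851 windows. At that share, 0 in so few windows does not set the mitochondrial or scaffold genes apart from other genes. The endoplasmic reticulum stress element, searched as CCAAT and CCACG with any 9 bases between them on either strand, stood in 0 of the 32 windows and in 0.119% of all. The genes with TGATGNAA were Aars, Gars, Iars, Tars and Yars. A match is a string of letters and was not tested as a site. The windows of the 3 genes with varying values follow, 5' to 3' on the gene's strand, with each match in capitals.
Tars, chr15:11399609-11399908, minus strand: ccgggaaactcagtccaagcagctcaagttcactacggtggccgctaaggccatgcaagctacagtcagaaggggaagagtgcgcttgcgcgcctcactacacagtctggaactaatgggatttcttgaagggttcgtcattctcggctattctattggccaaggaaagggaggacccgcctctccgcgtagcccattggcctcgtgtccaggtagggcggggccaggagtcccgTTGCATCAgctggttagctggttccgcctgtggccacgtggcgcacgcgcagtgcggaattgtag
Aars, chr8:111033592-111033891, plus strand: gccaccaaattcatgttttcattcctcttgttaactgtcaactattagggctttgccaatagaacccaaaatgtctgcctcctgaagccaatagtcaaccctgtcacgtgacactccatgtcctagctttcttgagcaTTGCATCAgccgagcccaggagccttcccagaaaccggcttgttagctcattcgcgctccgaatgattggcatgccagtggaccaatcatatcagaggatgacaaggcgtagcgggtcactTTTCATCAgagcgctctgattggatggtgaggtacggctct
Iars, chr13:49681880-49682179, plus strand: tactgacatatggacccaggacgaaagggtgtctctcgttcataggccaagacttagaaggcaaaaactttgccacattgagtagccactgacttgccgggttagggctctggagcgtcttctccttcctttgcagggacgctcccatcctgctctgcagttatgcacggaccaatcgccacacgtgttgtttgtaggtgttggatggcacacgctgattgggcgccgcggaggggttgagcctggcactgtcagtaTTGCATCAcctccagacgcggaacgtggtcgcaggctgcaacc
All matches in these 3 windows lie on the strand opposite to the gene. The match in Tars begins 15 bases before the start. Aars holds a pair of matches, the first beginning 112 bases before the start and the second 9 bases past it, and that of Iars begins 7 bases past it. The other 2 genes are flat on the array, and only the stretch around their match is given.
Gars, within chr6:55037751-55038050, plus strand: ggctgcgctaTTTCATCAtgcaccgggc
Yars, within chr4:129189653-129189952, plus strand: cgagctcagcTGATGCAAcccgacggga
In Gars the match lies on the opposite strand and in Yars on the gene's own strand.

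Varying values were the exception on this array but common among the synthetase genes. Of the 76 probe sets 35 varied, for 24 of the 38 genes: 20 of 40 cytosolic, 3 of 4 scaffold and 12 of 32 mitochondrial. Varying probe sets were concentrated among bright ones, and 41 of the 76 lay in the brightest of 4 equal groups by mean value, where 27 of them varied (65.85%) against 46.95% of all probe sets there. In the next brightest group 7 of 27 varied, against 11.51%. The narrowest range among the varying was 0.0869, for a probe set of Eprs, and the widest among the flat was 4.3e-07, also of Eprs, so no member lay near the limit of 0.01. Genes with flat values in every probe set were the cytosolic Cars, Gars, Kars, Sars, Vars and Yars, the scaffold gene Aimp1, and the mitochondrial Ears2, Lars2, Mars2, Sars2, Tars2, Vars2 and Wars2. Gars and Kars, whose single genes encode both the cytosolic and the mitochondrial glycine and lysine enzymes, are therefore not informative here, although glycine is the most abundant amino acid of collagen.

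**Figure D1:**
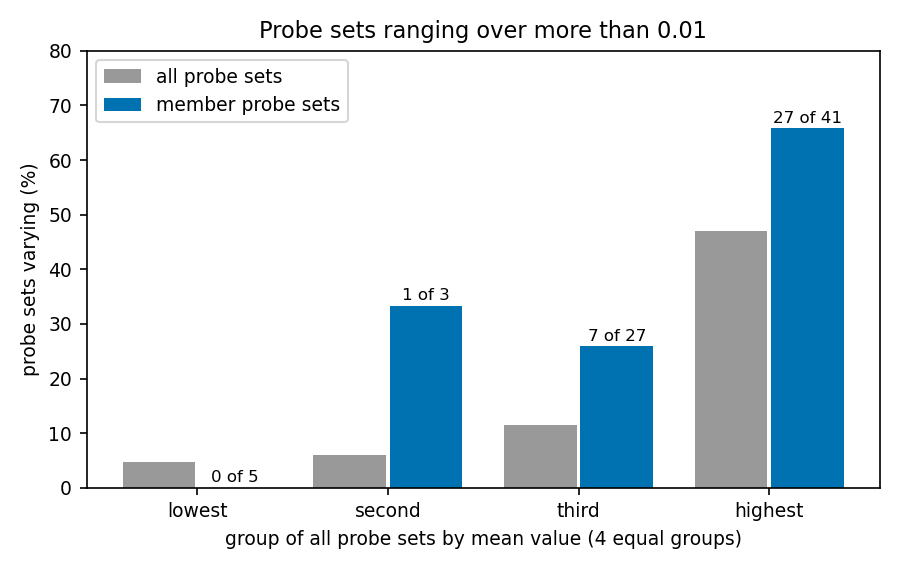
Share of probe sets ranging over more than 0.01 (vertical axis, percent) in 4 equal groups of all probe sets by mean value (horizontal axis), for all probe sets (grey) and for the synthetase and scaffold probe sets (blue, with counts). The share was 65.85% against 46.95% in the highest group, where 41 of the 76 lie.

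Over the whole array limma called 109 probe sets at adjusted p under 0.05 (0.242%), of which 103 were flat, and 6 were among the 7791 varying ones (0.077%). None of the 76 synthetase and scaffold probe sets was called by limma, with 3 at an unadjusted p under 0.05 against 13.1% of varying probe sets (Tars, Aars and Wars, 1 probe set each). Fitted to varying probe sets only, limma again called 0 of the 35 and 0.0% of all, with 4 at an unadjusted p under 0.05 against 14.6%. The same 3 were joined there by Rars2. These shares (3 and 4 of 35) lie near the background. The direction was less even. Of the 20 varying cytosolic probe sets 18 were lower and 2 higher, against 52.1% lower among all varying probe sets, and their median difference was -0.15 against -0.0040 for all. Counted once per gene, by the brightest varying probe set, 11 of 13 cytosolic genes were lower, with a median of -0.059, and 5 of 9 mitochondrial genes, with a median of -0.034. The cytosolic median is thus smaller by gene than by probe set. With the brightest probe set of every gene, flat ones included, both medians were practically 0 (-6.667e-09 and -6.667e-10). Of the 12 varying mitochondrial probe sets 7 were lower and 5 higher, with a median of -0.048. Without 10C replicate 2 the cytosolic count was 15 lower and 5 higher with a median of -0.054, against 47.91% lower among all varying probe sets. Leaving out 10C replicate 3 gave a cytosolic median of -0.22. Leaving out 6C+4CP replicate 2 gave -0.084, and leaving out replicate 3 of that diet gave -0.078. For the mitochondrial median, omitting 10C replicate 2 gave -0.023 and omitting 6C+4CP replicate 3 gave -0.0084. Probe sets that varied were kept because they varied, and probe sets of 1 gene share its transcripts, so these counts describe 13 genes and not 20 independent measurements. Single mice weighed on most differences: on leaving out 1 mouse 31 of the 35 moved by over 1.5 times or turned, and 4 did not (Tars, Rars2, the brighter probe set of Aars and the first of Wars).

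**Figure D2:**
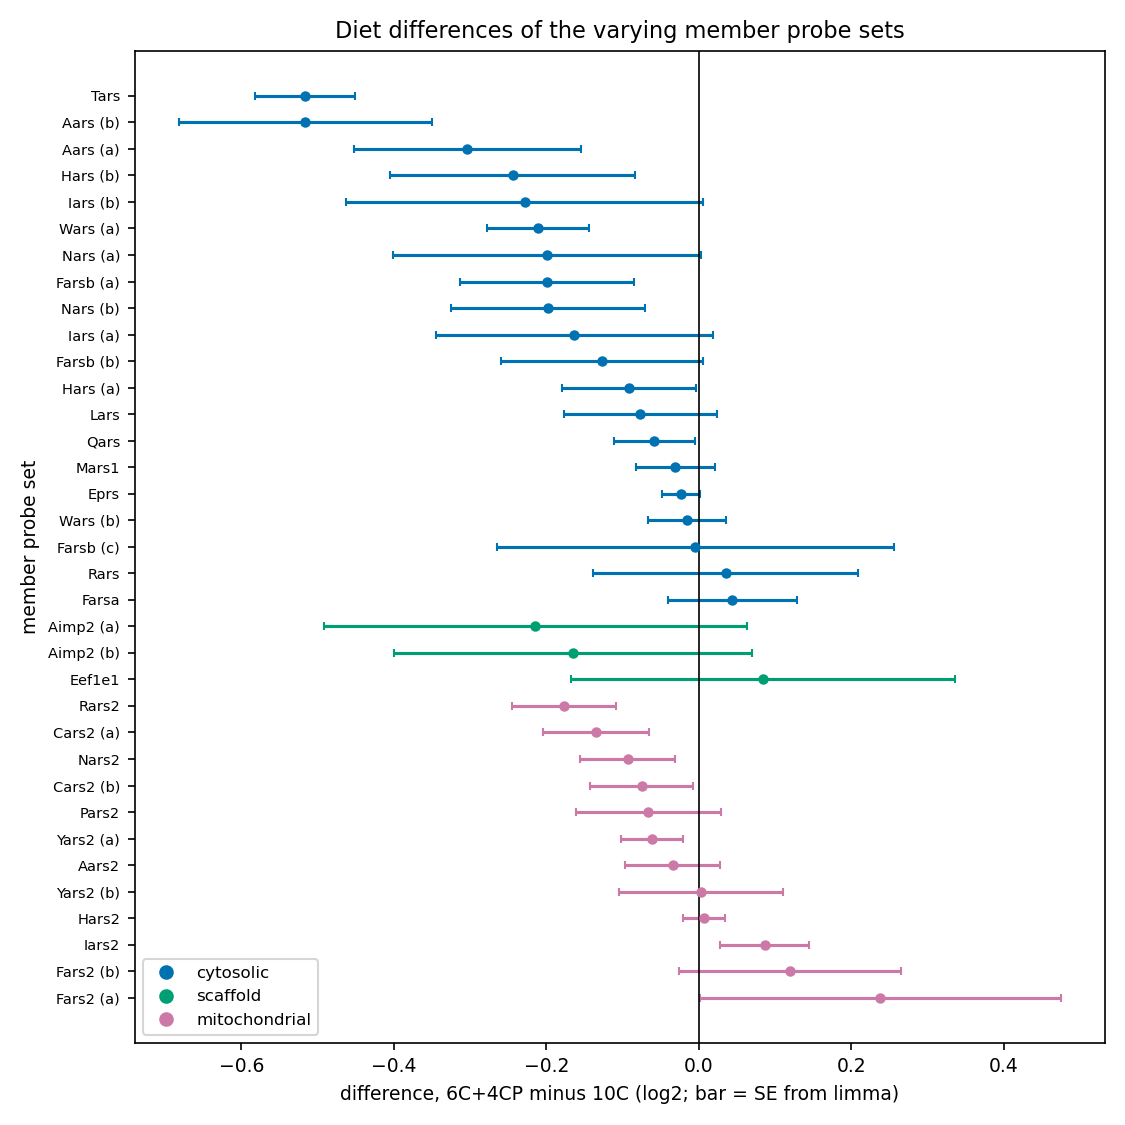
Difference between the diets (6C+4CP minus 10C, log2, horizontal axis) for each of the 35 varying probe sets (vertical axis), with bars of 1 SE from limma, coloured by class; letters in parentheses tell probe sets of 1 gene apart. Most cytosolic points lie left of 0, led by Tars and Aars, while the mitochondrial points lie on both sides.

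Of the free cytosolic enzymes, those outside the multisynthetase complex, Tars had the clearest separation. Tars, the threonine enzyme, measured 9.80, 9.79 and 9.66 under 10C against 9.16, 9.21 and 9.32 under 6C+4CP. Every 10C mouse lay above every 6C+4CP mouse, with a gap of 0.33 between the nearest, and the spread within a diet was narrow (SD 0.081 in 10C and 0.083 in 6C+4CP, n = 3 each). The difference was -0.52 (SE 0.066, 95% interval -0.70 to -0.34), or 1.43 times lower. Limma's adjusted p was 0.288 over all probe sets and 0.101 over varying ones, where its p was number 27 of 7791 from the smallest. A difference below -0.5 was found in 3.61% of varying probe sets. With any 1 mouse left out the difference of Tars stayed between -0.56 and -0.48, and its adjusted p did not pass in any of the alternative settings, with 0.101 to 0.629.

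Aars, the alanine enzyme, had a pair of probe sets, both lower. The brighter one, which can also bind transcripts of related genes by its type (suffix _s_at), read 9.05, 9.51 and 9.12 under 10C against 8.69, 8.87 and 8.57 under 6C+4CP. The diets did not overlap on it, and 10C replicate 2 stood highest. Its difference was -0.52 (SE 0.17), with an adjusted p of 0.704 by limma, or -0.37 without 10C replicate 2. The second probe set differed by -0.30 (SE 0.15), or -0.19 if 10C replicate 2 is omitted, and its diets overlapped, because 6C+4CP replicate 2 at 8.81 reached the level of the 10C mice at 8.79 and 8.82.

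Wars, the tryptophan enzyme, which interferon is known to induce, varied on 2 of its 4 probe sets. The first read 6.70, 6.87 and 6.68 under 10C against 6.54, 6.59 and 6.48 under 6C+4CP, without overlap and with a difference of -0.21 (SE 0.066; adjusted p = 0.698 by limma). The second, of a type (suffix _x_at) whose probes may match other transcripts, differed by -0.015 (SE 0.051), and its sign turned without 10C replicate 1 or 6C+4CP replicate 2. The probe sets of Wars therefore did not give 1 answer.

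**Figure D3:**
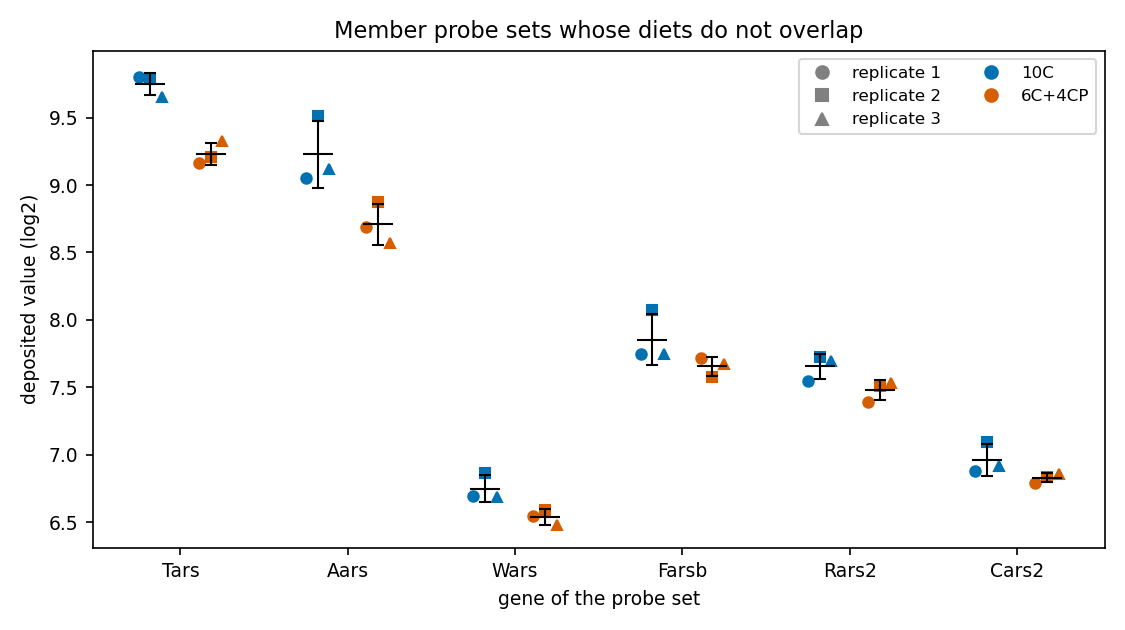
Deposited values (log2, vertical axis) of the 6 varying probe sets on which the mice of the 2 diets did not overlap, by gene (horizontal axis); points are single mice, shapes are replicate numbers, and black bars are the mean and SD of 3 mice. In all 6 the 10C mice (blue) lie above the 6C+4CP mice (orange), by a gap of 0.33 for Tars and only 0.015 for Rars2; heights are not comparable between genes.

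Without overlap and lower were 6 of the 35 varying probe sets, against 9.11% of all varying ones, and 0 were higher without overlap, against 10.8%. Beside Tars, Aars and Wars they belonged to Farsb, Cars2 and Rars2. The gap between the nearest mice of the diets was 0.18 for Aars and 0.092 for Wars, and it was at most 0.029 for the other 3.

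Phenylalanine is charged in the cytosol by an enzyme of paired subunits. Farsb, the beta subunit, varied on 3 probe sets. One of them read 7.74, 8.07 and 7.74 under 10C against 7.71, 7.58 and 7.67 under 6C+4CP, a difference of -0.20 (SE 0.11). The diets did not overlap on it, but only 0.029 parted the nearest mice, and omitting 10C replicate 2 gave -0.090. The other 2 differed by -0.13 (SE 0.13; -0.020 if 10C replicate 2 is omitted) and by -0.0050 (SE 0.26), the last with a 95% interval of -0.72 to 0.71 and with the highest value, 9.21, in 10C replicate 2. Without that mouse its difference was 0.25. It is also the brightest, and it stands for Farsb in the counts by gene and in the pairs. These 2 probe sets are of types that may match other transcripts (suffixes _s_at and _x_at). Farsa, the alpha subunit, read 7.13, 7.35 and 7.08 under 10C against 7.26, 7.19 and 7.24 under 6C+4CP, with overlap and a difference of 0.044 (SE 0.084), or -0.011 without 10C replicate 3.

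Asparagine and histidine enzymes were lower on both of their probe sets, with overlap. Nars, the asparagine enzyme, read 10.04, 10.24 and 9.83 under 10C against 9.92, 9.74 and 9.85 under 6C+4CP on its brighter probe set, a difference of -0.20 (SE 0.13) that was -0.095 if 10C replicate 2 was omitted. Its second probe set gave -0.20 (SE 0.20), or -0.037 if 6C+4CP replicate 2 was omitted. Hars, the histidine enzyme, read 8.23, 8.62 and 8.17 under 10C against 8.23, 8.12 and 7.94 under 6C+4CP, a difference of -0.24 (SE 0.16), or -0.10 without 10C replicate 2. Its second probe set differed by -0.092 (SE 0.087), and by -0.022 if that mouse was omitted.

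Among enzymes of the multisynthetase complex the differences were smaller in the median, with 6 of 7 varying probe sets lower and a median of -0.059, against 12 of 13 lower and a median of -0.20 for the free ones. The difference between these 2 classes was not tested. Iars, the isoleucine enzyme, showed the widest difference in the complex. It read 7.16, 7.19 and 6.83 under 10C against 7.24, 6.57 and 6.69 under 6C+4CP on 1 probe set (difference -0.23, SE 0.23). On the brighter probe set, of the _s_at type, it read 8.89, 8.98 and 8.59 against 8.94, 8.51 and 8.52 (difference -0.16, SE 0.18). In both, 6C+4CP replicate 1 lay with the higher 10C mice, so the diets overlapped widely. Omitting that mouse gave -0.43 and -0.31. Omitting 6C+4CP replicate 2 gave -0.094 and -0.090, and for the brighter probe set omitting 10C replicate 2 gave -0.085.

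Eprs, which charges both glutamate and proline from 1 protein, varied least. It read 8.93, 9.01 and 8.94 under 10C against 8.94, 8.92 and 8.95 under 6C+4CP. The difference was -0.024 (SE 0.025), and its 95% interval ran from -0.092 to 0.045. That probe set may bind related transcripts, and the other 3 probe sets of Eprs were flat. Mars1, the methionine enzyme, differed by -0.031 (95% interval -0.17 to 0.11), and Qars, the glutamine enzyme, by -0.059 (-0.20 to 0.087) on its 1 varying probe set of 4. Lars, the leucine enzyme, differed by -0.077 (-0.35 to 0.20). Rars, the arginine enzyme, was the 1 varying probe set of the complex that was higher. It read 8.28, 8.55 and 7.95 under 10C against 8.34, 8.22 and 8.32 under 6C+4CP, a difference of 0.035 (SE 0.17) that was -0.12 without 10C replicate 3.

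Scaffold genes of the complex gave wide spreads within the 10C diet. Aimp2, which binds the lysine enzyme to the complex, read 7.87, 8.15 and 7.44 under 10C against 7.87, 7.46 and 7.63 under 6C+4CP on its brighter probe set. Its differences were -0.17 (SE 0.23) and -0.21 (SE 0.28) on the 2 probe sets, and without 10C replicate 2 they were -0.0022 and 0.0025. Eef1e1, also called AIMP3, which binds the methionine enzyme, read 8.35, 7.94 and 7.48 under 10C against 8.06, 7.91 and 8.05 under 6C+4CP, a difference of 0.084 (SE 0.25). Its 6C+4CP mice lay inside the range of the 10C mice. The median over the 3 varying scaffold probe sets was -0.17. With a 10C mouse omitted it was 0.0025 (replicate 2) or -0.36 (replicate 3), and with a 6C+4CP mouse omitted -0.27 (replicate 1) or -0.068 (replicate 2).

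Mitochondrial synthetases with the clearest separation were those of arginine and cysteine, both lower. Rars2, the mitochondrial arginine enzyme, read 7.55, 7.72 and 7.69 under 10C against 7.39, 7.51 and 7.53 under 6C+4CP. The nearest mice of the diets were 0.015 apart, and the difference was -0.18 (SE 0.069; adjusted p = 0.704 by limma). Cars2, the cysteine enzyme, read 6.88, 7.10 and 6.91 under 10C against 6.79, 6.83 and 6.86 under 6C+4CP, without overlap and with a difference of -0.13 (SE 0.069), or -0.068 if 10C replicate 2 was omitted. Its second varying probe set gave -0.075 (SE 0.067) with overlap, or -0.020 if that mouse was omitted.

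Fars2, the mitochondrial phenylalanine enzyme, had the widest difference toward higher values in 6C+4CP. It read 8.77, 8.28 and 8.14 under 10C against 8.75, 8.81 and 8.34 under 6C+4CP, a difference of 0.24 (SE 0.24) with wide overlap. Omitting 10C replicate 1 gave 0.42 and omitting 10C replicate 3 gave 0.11. Its second probe set, of the _x_at type, gave 0.12 (SE 0.15). Iars2, the isoleucine enzyme, read 7.67, 7.71 and 7.57 under 10C against 7.78, 7.65 and 7.78 under 6C+4CP, a difference of 0.086 (SE 0.059). Nars2, for asparagine, differed by -0.093 (SE 0.062), Pars2, for proline, by -0.066 (SE 0.096) and Aars2, for alanine, by -0.034 (SE 0.062), all with overlap. The values of Nars2, from 6.162 to 6.383, and of Pars2, from 6.236 to 6.545, lay near the array medians. The brighter probe set of Nars2 was flat. Without 6C+4CP replicate 3, the lowest mouse for Pars2 at 6.24, the difference of Pars2 was 0.030. Hars2, for histidine, differed by 0.0071 (95% interval -0.067 to 0.082). The 2 probe sets of Yars2, for tyrosine, differed by -0.061 (SE 0.041) and 0.0025 (SE 0.11), the latter of the _x_at type.

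Both members of a cytosolic and mitochondrial pair varied for 7 amino acids, which allowed the change of one to be set against the other within each mouse. The mitochondrial value was subtracted from the cytosolic one in each mouse, taking the brightest varying probe set of each gene, and the diets were compared by a two-sided exact permutation test, whose smallest p for 3 against 3 mice is 0.1. Levels of different probe sets are not comparable, so only the shift between the diets is read. For alanine (Aars less Aars2) the 10C mice gave 1.84, 2.34 and 1.75 and the 6C+4CP mice 1.42, 1.69 and 1.36, without overlap. The shift was -0.48 (exact permutation p = 0.1, or 0.467 after Benjamini-Hochberg adjustment over the 7 pairs), and it was -0.30 without 10C replicate 2. The shift was -0.25 for histidine and -0.25 for isoleucine (exact permutation p = 0.2 for each), -0.24 for phenylalanine (Farsb less Fars2, exact permutation p = 0.6) and -0.10 for asparagine (exact permutation p = 0.4). For arginine it went the other way, 0.21 (exact permutation p = 0.5), with -0.18 for Rars2 and 0.035 for Rars. For proline (Eprs, which also charges glutamate, less Pars2) it was 0.042 (exact permutation p = 1.0), or -0.060 if 6C+4CP replicate 3 was omitted. Omitting 10C replicate 2 gave -0.10 for histidine and -0.022 for asparagine, and omitting 6C+4CP replicate 3 gave -0.16 for isoleucine. The phenylalanine shift was -0.53 without 10C replicate 1 and 0.065 without 10C replicate 2. None of the 7 passed 0.05, which this exact test cannot reach with 3 against 3 mice, and adjusted values ran from 0.467 to 1.0.

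A single mouse stood out in the cytosolic set. On 16 of the 20 varying cytosolic probe sets the highest of the 6 mice was 10C replicate 2, against 26.18% of all varying probe sets, and on 6 of 12 mitochondrial ones. Relative to the mean of the 6 mice its median deviation over the cytosolic probe sets was 0.25, against -0.070 for 10C replicate 3, 0.021 for 10C replicate 1, and 0.026, -0.071 and -0.11 for 6C+4CP replicates 1, 2 and 3. The 10C mice thus spanned more than the medians of the diets differed. On 15 of the 20 cytosolic probe sets the SD was wider in 10C than in 6C+4CP, which also held for 61.46% of all varying probe sets. The same mouse had the highest value of Saa1, an acute phase protein, at 14.03 against 7.54 to 9.13 in the other mice. For Hspa5, the endoplasmic reticulum chaperone BiP, it was highest on 2 of 3 varying probe sets, on the brightest at 13.25 against 12.77 and 12.87 in the other 10C mice and 11.77 to 11.84 in 6C+4CP. On the third it was the lowest 10C mouse, at 8.60 against 8.69 and 8.74. The part of these in the synthetase values was not tested. Tars did not follow that mouse: 10C replicate 1 was its highest, and its difference without 10C replicate 2 was -0.50.

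**Figure D4:**
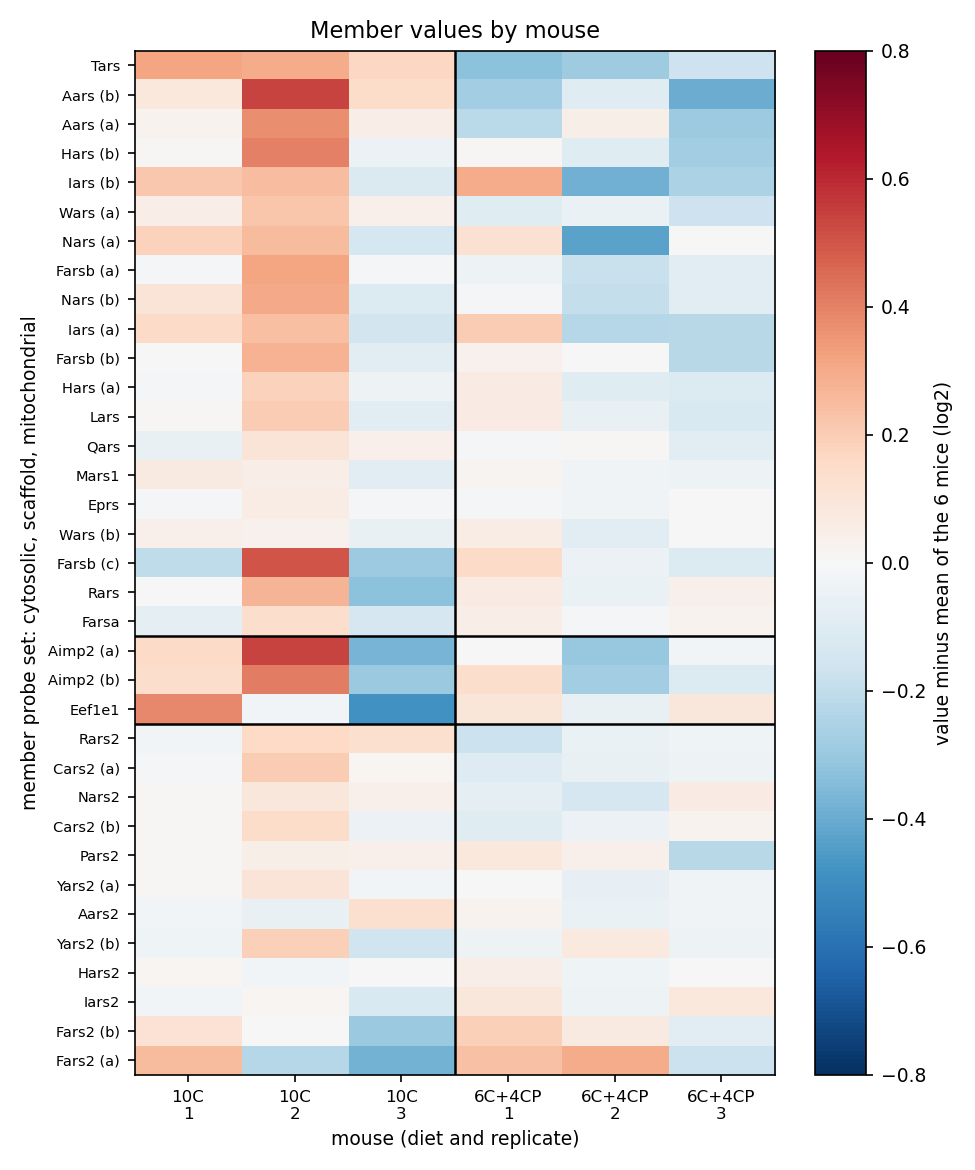
Value of each varying probe set (rows, by class and ordered by diet difference) in each mouse (columns), as the deviation from its mean over the 6 mice (colour, log2; red above, blue below). The column of 10C replicate 2 is red in most cytosolic rows, with a median deviation of 0.25, while the row of Tars splits by diet.

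Other genes of tRNA charging and its first steps in translation differed little in the median. Of 19 genes listed 15 were measured, 6 of them with varying values on 7 probe sets. Of these probe sets 4 were lower and 3 higher, with a median of -0.014. Limma over all probe sets called 0 of the 7, against 0.077% of all varying ones. At an unadjusted p under 0.05 there were 0, against 13.1%. At that share, 0 of so few does not set these genes apart. Qrsl1, a subunit of the mitochondrial enzyme that makes glutaminyl-tRNA by converting a mischarged glutamyl-tRNA, was lower on both its probe sets. The dimmer one read 6.47, 6.68 and 6.34 under 10C against 6.28, 6.26 and 6.31 under 6C+4CP, without overlap, a difference of -0.22 (SE 0.10). Its 6C+4CP values lay near the array medians. The brighter one, of the _s_at type, differed by -0.24 (SE 0.19) with overlap. On both, 10C replicate 2 was the highest mouse. Tsfm, a mitochondrial elongation factor, differed by -0.059 (SE 0.039) and Sepsecs, of selenocysteine synthesis on tRNA, by 0.031 (SE 0.050). Gatc, which acts with Qrsl1, differed by -0.014 (SE 0.053). Trnt1, which adds the CCA end of tRNA, differed by 0.023 (SE 0.19), and Pstk, of the selenocysteine pathway, by 0.0028 (SE 0.013).

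In the amino acid response the kinase GCN2 or PERK acts through ATF4. Varying probe sets of genes of this program read higher in 6C+4CP more often than lower. The difference from the cytosolic synthetases was not tested. Of 31 genes listed 30 were measured and 13 varied, on 16 probe sets. Of these 11 were higher and 5 lower (52.1% of all varying probe sets were lower), with a median of 0.083. The other 17 measured genes were flat on every probe set, so the direction covers the varying ones only. Limma called 0 of them, with 2 at an unadjusted p under 0.05 against 13.1% of all varying ones. On 5 of the 16 the diets did not overlap with 6C+4CP higher, against 10.8% of all, and on 1 with 6C+4CP lower, against 9.11%. The 16 probe sets come from 13 genes, so these counts are not of separate genes. Atf4 itself read 8.51, 8.43 and 8.30 under 10C against 8.62, 8.55 and 8.56 under 6C+4CP. Its diets did not overlap, and they differed by 0.16 (SE 0.063). That probe set may match other transcripts (suffix _x_at), and the other 2 of Atf4 were flat. Fgf21, a hormone of the liver that ATF4 and PPARa can induce, read 7.11, 6.38 and 7.02 under 10C against 7.26, 7.68 and 8.07 under 6C+4CP, also without overlap, a difference of 0.84 (SE 0.32; adjusted p = 0.704 by limma). Cth, which makes cysteine, was the 1 without overlap that read lower, with a difference of -0.27 (SE 0.098). Ddit3, a transcription factor of the stress response, differed by 0.074 (SE 0.027) without overlap on 1 probe set. Its other varying probe set gave 0.092 (SE 0.12) with overlap. Vldlr, a lipoprotein receptor, differed by only 0.025 (SE 0.0045) without overlap. The values of Vldlr, from 6.04 to 6.07, lay below the array medians, and its other probe sets were flat. The remaining probe set without overlap and higher, of a further gene, also lay below them. It ranged from 5.56 to 5.72, with a difference of 0.061. Slc38a2, an amino acid transporter, gave 0.31 (SE 0.17) and -0.054 (SE 0.17) on its 2 varying probe sets, with overlap on both.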

How the data were processed

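Total RNA from 1 liver piece per mouse was amplified and biotin-labelled from 100 ng, per the labels' protocols, and hybridised to 1 array each. The authors' deposited values were used as they stand and read as log2. The submitters' processing notes name R 2.7.2; the sources used here do not give the background treatment, the probe summary or the log base. Of 45101 probe sets 64 array controls were left out. GEO's platform annotation gave 1 symbol for 34945 of the rest, several for 932 and none for 9160.

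limma 3.58.1 (R 4.3.3; lmFit, eBayes without trend, no covariates) compared the diets, Benjamini-Hochberg adjusted over all probe sets, threshold 0.05. Probe sets ranging over at most 0.01 count as flat. All synthetase and scaffold genes may be named, and of each pathway list the 6 varying genes with the smallest p; Saa1, Hspa5 and the comparison of pairs were chosen after seeing the data. The members, lists and motifs were chosen with earlier results of these data known. Marker lists covered hepatocytes, the other resident cells of liver (Kupffer cells, endothelium, stellate cells, bile duct cells), blood cells and pancreatic acinar cells. The fit was tested on simulated data with planted shifts wider than any synthetase difference here, so that test does not cover differences of their size.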

Additional observations from a re-analysis of the deposited data

How the results depend on the processing

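Over all probe sets the 109 calls became 3 with the replicate number as a block (replicate block), 1 with quantile normalization, 0 with median centring (1202 at an unadjusted p under 0.05), 0 with an intensity trend and robust estimation (2685) and 0 on varying probe sets alone (1140), all by limma; without any 1 mouse they were 285 to 398. Calls among the 76 probe sets numbered 0 under all of these and 0 to 1 without any 1 mouse, the 1 being a flat probe set of Lars2 with a range of 2e-09. The replicate block is not a pairing given by the design: deviations of equally numbered mice correlated at 0.48, -0.089 and 0.085, across probe sets. With 1 probe set per gene, the brightest, flat ones included, the median was -6.667e-09 for cytosolic and -6.667e-10 for mitochondrial synthetases. Without any 1 mouse the cytosolic median ran from -0.22 to -0.054, the mitochondrial one from -0.069 to -0.0084 and the scaffold one from -0.36 to 0.0025, and the number higher of 35 from 4 to 11. Of the 35 differences 22 kept their sign in all settings and 13 turned it at least once, each time on leaving out 1 mouse. Ranges without any 1 mouse for these were -0.037 to 0.00030 (Eprs), -0.011 to 0.13 (Farsa), -0.15 to 0.25 (Farsb), -0.14 to 0.0046 (Lars), -0.12 to 0.18 (Rars), -0.048 to 0.022 (Wars), -0.45 to 0.0025 (Aimp2), -0.14 to 0.30 (Eef1e1), -0.072 to 0.023 (Aars2), -0.00030 to 0.21 (Fars2), -0.017 to 0.027 (Hars2), -0.12 to 0.030 (Pars2) and -0.075 to 0.098 (Yars2). The cause of these changes was not tested.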
